A study of Mus musculus with 2 samples.

Results

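The genes described here are 10 genes of the unfolded protein response and the integrated stress response in lung group 2 innate lymphoid cells (ILC2s): Xbp1, Atf4, Ddit3, Hspa5, Hsp90b1, Calr, Pdia4, Sdf2l1, Herpud1 and Ddit4. They were taken by name from the 32285 genes listed in the files, and all 10 had counts in both libraries. Their levels were compared between genotypes and, within each genotype, between cells with and without transcripts of the cytokines Il5 and Il13, to ask whether genes of secretory load followed cytokine transcripts.

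ILC2s, tissue-resident lymphocytes without antigen receptors, were sorted from the lungs of mice as live Lineage- CD90.2+ ST2+ Sca-1+ cells and profiled by droplet-based scRNA-Seq with 3′ chemistry. The groups were WT mice and Pac1-/- mice, the latter on a C57BL/6J background and carrying a germline null of Pac1 (Dusp2), the gene of the phosphatase PAC1, so that its absence was not limited to ILC2s. The labels gave no treatment for either group. Cells of several mice were pooled within a genotype before capture of about 13000 cells, which left 1 library per genotype and no record of the mouse a cell came from.

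Proteins bound for secretion enter the endoplasmic reticulum (ER), where chaperones fold them. Misfolded protein there activates sensors in the ER membrane: IRE1, whose RNase splices Xbp1 mRNA, ATF6, and the kinase PERK, which phosphorylates eIF2α. Phosphorylated eIF2α lowers translation in general and favours translation of ATF4, a route that amino acid shortage, heme deficiency and double-stranded RNA also reach and that is then called the integrated stress response. Secretory lymphocytes such as plasma cells are known for high use of the IRE1 and XBP1 branch.

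Xbp1 (chr11:5520659-5525893), Atf4 (chr15:80255184-80257541) and Ddit3 (chr10:127290774-127296288), which encodes CHOP, are transcription factors of these pathways. Hspa5 (chr2:34771970-34777547), the ER chaperone BiP, Hsp90b1 (chr10:86690209-86705509), the ER chaperone GRP94, Calr (chr8:84841850-84846934), the lectin chaperone calreticulin, Pdia4 (chr6:47796141-47813430), a disulfide isomerase, and Sdf2l1 (chr16:17130138-17132383), a partner of BiP, act in ER folding. Herpud1 (chr8:94386438-94395377) serves ER-associated degradation, and Ddit4 (chr10:59949669-59951834), also called REDD1, restrains mTORC1. These positions are those of GENCODE vM21 on GRCm38, the build the files name as mm10, and all 10 genes are protein coding. Herpud1 has an antisense gene, Gm15890, Hsp90b1 shares its strand with Gm15344, and Ddit3 overlaps Mars on the other strand. The symbol Ddit3 had a second, protein-coding identifier nested in the gene on the same strand, which held 0 UMIs in both libraries. Whether reads that match both identifiers were lost from the Ddit3 counts was not tested.

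Stress signals reach several of these genes through the ER stress response element (ERSE), which the factor ATF6 binds together with NF-Y. The 5 motifs described here were searched on both strands in RefSeq promoters of GRCm38.p6, each reaching from 250 bases before to 50 bases after a transcription start. Only exact matches to the letters were counted, so variants of an element were missed. All 10 members had a promoter in that table. ERSE, written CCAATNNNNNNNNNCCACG, was found in 39 of 32851 promoters (0.119%) and in 3 of the members. ERSE-II, which is ATTGG, any 1 base and CCACG, was found in 12 promoters (0.0365%) and in 1 member. The XBP1 element UPRE, TGACGTGG, was in 0.676% of promoters, the element CRE, TGACGTCA, in 1.79%, and the ATF4 and CHOP element CARE, TGATGCAA, in 0.895%. CARE matched 1 member, Herpud1, and UPRE and CRE matched 0. The reverse complement of UPRE begins with the letters CCACG that end ERSE and ERSE-II, so these motifs can overlap, although no member had such a match. The promoters of 4 members are shown because they carry the matches and because Hspa5 and Calr went apart from Hsp90b1 by cytokine status. Each line gives the 250 bases before the start, 5′ to 3′ on the strand of the gene, with the matches in capitals: Hspa5 at chr2:34771840-34772089 (plus strand), Hsp90b1 at chr10:86705445-86705694 (minus strand), Calr at chr8:84846932-84847181 (minus strand) and Herpud1 at chr8:94386179-94386428 (plus strand).
Hspa5: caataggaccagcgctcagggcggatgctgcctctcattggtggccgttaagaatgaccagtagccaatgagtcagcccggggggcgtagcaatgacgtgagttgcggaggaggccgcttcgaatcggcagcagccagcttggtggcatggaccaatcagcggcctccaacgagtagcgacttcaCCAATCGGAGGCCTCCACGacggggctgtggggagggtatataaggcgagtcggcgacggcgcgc
Hsp90b1: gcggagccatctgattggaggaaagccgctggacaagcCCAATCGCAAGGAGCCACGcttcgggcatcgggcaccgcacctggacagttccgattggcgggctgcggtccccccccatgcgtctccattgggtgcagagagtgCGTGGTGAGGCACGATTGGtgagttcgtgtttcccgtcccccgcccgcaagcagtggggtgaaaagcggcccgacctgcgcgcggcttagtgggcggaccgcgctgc
Calr: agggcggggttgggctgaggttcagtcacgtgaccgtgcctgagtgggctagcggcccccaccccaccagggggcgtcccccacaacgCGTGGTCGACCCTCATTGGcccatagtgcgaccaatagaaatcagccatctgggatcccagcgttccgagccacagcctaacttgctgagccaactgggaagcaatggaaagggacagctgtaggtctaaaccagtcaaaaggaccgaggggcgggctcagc
Herpud1: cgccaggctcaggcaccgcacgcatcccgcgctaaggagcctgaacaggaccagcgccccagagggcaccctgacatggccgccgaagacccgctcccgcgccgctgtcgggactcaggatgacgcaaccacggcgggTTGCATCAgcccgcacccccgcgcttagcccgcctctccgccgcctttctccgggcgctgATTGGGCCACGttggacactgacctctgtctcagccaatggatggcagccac
Hspa5 had 1 exact ERSE match on the strand of the gene, from 65 to 47 bases before the start. Hsp90b1 had 2, from 212 to 194 bases on its own strand and from 107 to 89 bases on the other. The ERSE of Calr lay from 162 to 144 bases before the start on the other strand. The capitals of Herpud1 are CARE, from 112 to 105 bases on the other strand, and ERSE-II, from 52 to 42 bases on its own. The other 6 members had none of these letters in the window, which says nothing of the factors themselves.

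Whole-library facts were as follows. The filter on detected genes (at least 500) and mitochondrial UMIs (at most 10%) passed 8394 of 10866 WT barcodes and 7087 of 9495 Pac1-/- barcodes, with medians of 4186.5 and 5577 UMIs, where a UMI marks a single captured transcript. Dusp2 had 1419 UMIs in WT and 5 in Pac1-/-. Both libraries held UMIs of all 10 ILC2 markers, summing to 6450 CPM (the UMIs of a gene scaled by all UMIs of the cells, in thinned cells here) in WT and 5663 CPM in Pac1-/-. Plasma cell markers, of interest here because plasma cells carry these genes at high level, had UMIs for 7 of 10 in each library and summed to 70.1 and 110 CPM, with Ighg1 and Tnfrsf17 at 0 in both. Erythroid markers summed to 53.2 CPM in WT and 281 CPM in Pac1-/-, stromal markers to 6.72 and 40.1 CPM, myeloid markers to 4.89 and 21.9 CPM, mast cell markers to 13.6 and 28.4 CPM, B cell markers to 10.0 and 24.0 CPM, T cell markers to 701 and 956 CPM, and epithelial markers to 96.2 and 121 CPM. Endothelial and NK cell markers were at 41.0 and 7.25 CPM in WT and 40.6 and 6.50 CPM in Pac1-/-. The part of these cells in the results was not tested. The libraries shared 15 barcodes among those passing (0.179% of WT and 0.212% of Pac1-/-). Predicted doublets, 730 WT (8.70%) and 538 Pac1-/- cells (7.59%), were kept, as the rule for the cells has it.

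The first comparison asked whether loss of PAC1 went with other levels of the 10 genes. Xbp1 was the member that stood lowest in Pac1-/- cells and Sdf2l1 the member that stood highest, whereas Hspa5, Hsp90b1, Calr and Atf4 lay near the bulk of genes. UMIs were summed over cells and given as CPM with exact 95% Poisson intervals, and ratios carry exact conditional binomial intervals. With 1 library per genotype there was no replicate check and no test, and every interval covers counting error only. In such sums, fewer cells expressing a gene and less RNA per cell cannot be told apart. The median of the 12427 genes with at least 50 UMIs was 0.19 higher in Pac1-/- on the log2 scale, so ratios are given relative to this gene. Levels are compared within a gene only, because 3′ counts were not scaled to length.

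Xbp1, the transcription factor spliced by IRE1, was at 84.2 CPM (81.8 to 86.6) in WT and 57.8 CPM (55.9 to 59.8) in Pac1-/-. The relative log2 ratio was −0.73 (−0.79 to −0.67), and it stayed between −0.83 and −0.54 under the 10 alternatives tried. Only 9.12% of genes had a lower ratio. These counts do not tell spliced from unspliced Xbp1, so they carry the amount of mRNA and not its processing. Atf4, the effector of phosphorylated eIF2α, was at 193 CPM in WT and 203 CPM in Pac1-/-, a relative log2 ratio of −0.11 (−0.15 to −0.08). It kept its sign in 8 of 10 alternatives and was 0.07 with scaling to total UMIs and 0.01 within barcodes gated by ILC2 markers (at least 2 of them and at most 1 marker of each other type). Ddit3, the proapoptotic factor CHOP, was at 33.1 CPM in WT and 31.5 CPM in Pac1-/-, with a relative log2 ratio of −0.26 (−0.36 to −0.17). Neither Atf4 nor Ddit3 was far from the median gene, and both are regulated in part at the level of translation, which these counts do not show.

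Among the folding genes, Hspa5 was at 1306 CPM in WT and 1256 CPM in Pac1-/- (relative log2 ratio −0.24; −0.26 to −0.23). Hsp90b1 was at 381 and 379 CPM (−0.20; −0.22 to −0.17), and Calr was at 297 and 347 CPM (0.04; 0.01 to 0.07). The 3 members with an ERSE thus lay within the middle 50% of all genes, which ran from −0.31 to 0.28. So did Atf4 (−0.11), Ddit3 (−0.26) and Ddit4 (−0.06), which had none of the motifs. Herpud1, with ERSE-II, lay below this band at −0.46. Pdia4 lay below it too, at 52.1 CPM in WT and 44.5 CPM in Pac1-/- (−0.41; −0.49 to −0.34). Sdf2l1 was higher, at 10.4 CPM (9.60 to 11.3) in WT and 18.2 CPM (17.1 to 19.3) in Pac1-/-, a relative log2 ratio of 0.61 (0.47 to 0.76). It was also the member with the fewest UMIs, 570 in WT and 1062 in Pac1-/-. Folding genes therefore did not move as a block between the libraries.

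Herpud1, a membrane protein of the ubiquitin ligase complex that clears misfolded ER proteins, was at 69.1 CPM in WT and 57.3 CPM in Pac1-/- (−0.46; −0.52 to −0.39). Ddit4 was at 75.5 CPM in WT and 82.4 CPM in Pac1-/- (−0.06; −0.12 to −0.00). It kept its sign in 7 of 10 alternatives and was 0.13 with scaling to total UMIs, 0.12 within barcodes gated by ILC2 markers and 0.045 in thinned cells with neither cytokine. Of the 10 members, 8 lay below the median gene and 2 above it, with a median relative log2 ratio of −0.22 (−0.03 as counted). A relative log2 ratio of −0.5 or lower was met by 1 member, Xbp1, and by 16.1% of all genes. A ratio of 0.5 or higher was met by 1 member, Sdf2l1, and by 11.5% of all genes. These shares of the members were near those of all genes.

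**Figure D1:**
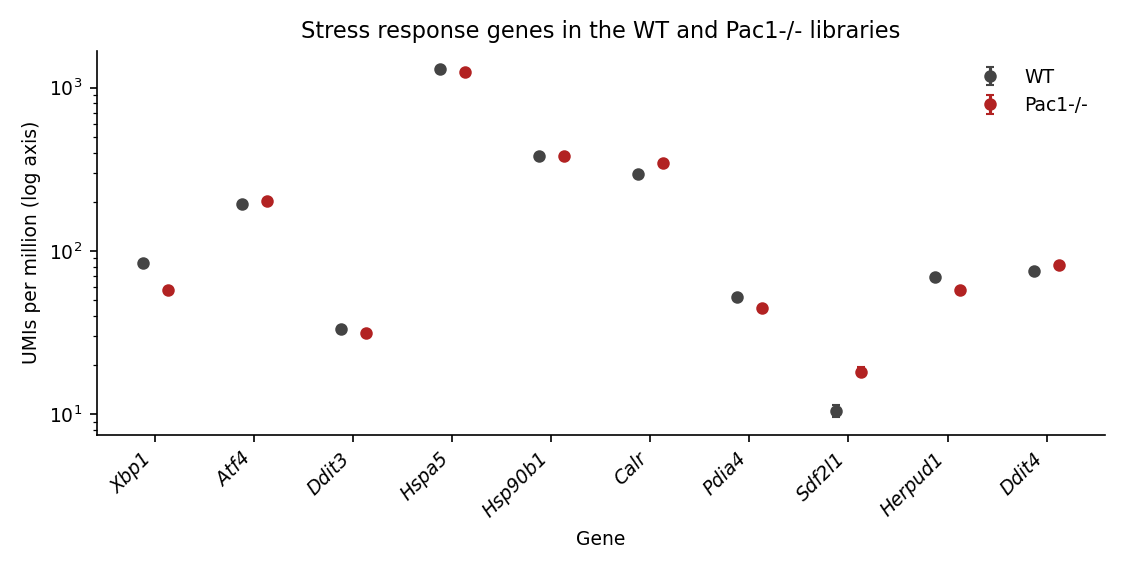
Points are CPM of each gene on a log axis in the WT (grey) and Pac1-/- (red) library, with exact 95% Poisson intervals that cover counting error only. Xbp1 sits lower in Pac1-/- (84.2 against 57.8) and Sdf2l1 higher (10.4 against 18.2), while the points of Hsp90b1 overlap (381 and 379).

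**Figure D2:**
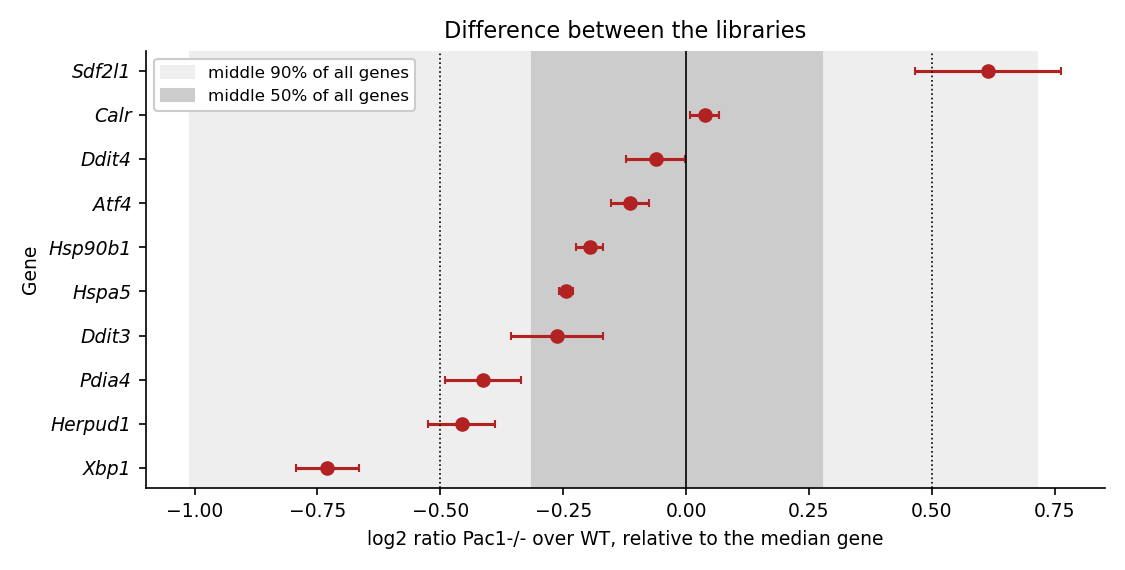
Points are log2 ratios of Pac1-/- over WT relative to the median gene with exact 95% intervals, dotted lines mark −0.5 and 0.5, and grey bands hold the middle 50% (−0.31 to 0.28) and the middle 90% (−1.01 to 0.71) of 12427 genes. Xbp1 (−0.73) and Sdf2l1 (0.61) lie outside the dotted lines, and all 10 points lie within the wider band.

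The lower Xbp1 level was also seen in cells with no cytokine UMI among 1500 UMIs drawn from the cell. For the classes described next, Xbp1 was at 72.9 CPM in WT and 53.3 CPM in Pac1-/- in cells with neither cytokine (relative log2 ratio −0.60; −0.80 to −0.41). In cells with Il5 alone it was at 98.5 and 81.5 CPM (−0.38; −0.70 to −0.07). Herpud1 showed a ratio of −0.47 (−0.67 to −0.27) in cells with neither cytokine and of −0.41 (−0.80 to −0.03) in cells with Il5 alone. In the 2 smaller classes the Herpud1 intervals included 0, with ratios of −0.39 (−1.12 to 0.31) for Il13 only and −0.41 (−1.19 to 0.31) for both cytokines, and Xbp1 had −0.71 (−1.37 to −0.09) and −0.66 (−1.38 to 0.02). Sdf2l1 was at 12 and 18.8 CPM in cells with neither cytokine (0.49; 0.09 to 0.90). In the other classes its intervals included 0, with ratios of 0.43 (−0.53 to 1.36) for Il5 only, 1.15 (−0.45 to 2.90) for Il13 only and −1.11 (−4.36 to 1.16) for both. Hspa5 had −0.13 (−0.17 to −0.08) in cells with neither cytokine and 0.19 (0.04 to 0.33) in cells with both.

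The second comparison asked whether the members followed Il5 and Il13, the transcripts of the cytokines IL-5 and IL-13 that ILC2s secrete. Hspa5 and Calr were higher in cells with both cytokines than in cells with neither in both libraries, and higher with more cytokine UMIs. For Hspa5 this held only up to 15 of them, and in WT the intervals at 4 to 7 and at 8 to 15 overlapped. For Calr the intervals of most neighbouring classes overlapped. Xbp1 was higher in cells with Il5 only, and in cells with Il13 only it was not separated from the median gene. Ddit3 and Sdf2l1 had no order of the classes that both libraries shared, Pdia4 was lower at 8 to 15 cytokine UMIs than at 0 as counted over all UMIs but not separated with thinned UMIs, Hsp90b1 was level as counted and above the median gene in cells with both cytokines, and Ddit4 went lower in cells with Il5 alone. Because deep cells show more genes, a random draw of 1500 UMIs was taken from every cell, which kept 7634 WT and 6564 Pac1-/- cells and left out 760 and 523 shallower ones. Cells with UMIs of both cytokines numbered 535 in WT (7.01%) and 251 in Pac1-/- (3.82%). Cells with Il5 only numbered 1984 (26.0%) and 982 (15%), those with Il13 only 515 (6.75%) and 370 (5.64%), and those with neither 4600 (60.3%) and 4961 (75.6%). The cells with neither lacked both cytokines within the draw only. Over all of their UMIs they held 4536 Il5 and 1483 Il13 UMIs in WT (162 and 53.0 CPM) and 4170 and 1455 in Pac1-/- (103 and 35.9 CPM).

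A single cytokine UMI can come from free RNA in a droplet. Barcodes with UMIs of at least 2 B cell markers, which should lack Il5, held Il5 in 4 of 10 cases in WT (exact binomial interval 12.2% to 73.8%), against 33.0% of all thinned WT cells, with medians of 4297.5 and 4445.5 UMIs. In Pac1-/- the numbers were 1 of 25 (0.101% to 20.4%) and 18.8%, with medians of 5414 and 5782.5 UMIs. For Il13 they were 2 of 10 against 13.8% in WT and 1 of 25 against 9.46% in Pac1-/-. In both libraries the shares were therefore not separated from background at this number of barcodes, and the ratios of both cytokines over neither were also computed with at least 2 UMIs asked of a cytokine. They were then 0.49 in WT and 0.96 in Pac1-/- for Hspa5, 1.0 and 0.94 for Calr, 0.85 and 0.73 for Xbp1, and 0.23 and 0.35 for Hsp90b1. Depth before thinning also differed, from a median of 5685 UMIs in WT cells with both cytokines to 4078.5 in cells with neither, and from 7653 to 5578 in Pac1-/-.

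Hspa5, which binds unfolded chains and holds the ER stress sensors inactive, was at 1070 CPM (1045 to 1094) in WT cells with neither cytokine. It was at 1399 CPM with Il13 only, 1356 CPM with Il5 only and 1360 CPM (1280 to 1443) with both. The WT classes with a cytokine did not differ beyond their intervals, and all lay above the class with neither. In Pac1-/- the levels were 1087 CPM (1063 to 1111) with neither, 1422 CPM with Il13 only, 1413 CPM with Il5 only and 1583 CPM (1458 to 1715) with both. The share of cells with an Hspa5 UMI went from 69.5% to 82.4% in WT and from 70.1% to 87.6% in Pac1-/- between neither and both. As counted, the log2 ratio of both over neither was 0.35 in WT and 0.54 in Pac1-/-. Relative to the median gene, which was 0.18 lower with both cytokines in WT and 0.24 lower in Pac1-/-, it was 0.53 (0.44 to 0.62) and 0.79 (0.66 to 0.91). With at least 2 UMIs of each cytokine the relative ratios were 0.49 and 0.96.

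Calr, a chaperone of glycoproteins and a store of ER calcium, showed the same order in both libraries at its ends. In WT it was at 255 CPM (243 to 267) with neither cytokine, 280 CPM with Il13 only, 321 CPM with Il5 only and 391 CPM (349 to 437) with both. Neighbouring WT classes from neither to Il13 only, and from Il13 only to Il5 only, overlapped in their intervals. The Pac1-/- library had 296 CPM (283 to 308), 395 CPM, 392 CPM and 444 CPM (379 to 516). The Pac1-/- classes with a cytokine overlapped one another and not the class with neither. The relative log2 ratio of both over neither was 0.80 (0.62 to 0.98) in WT and 0.83 (0.59 to 1.06) in Pac1-/-. With at least 2 UMIs of each cytokine it was 1.0 and 0.94.

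Xbp1 rested on far fewer thinned UMIs, 79 in WT cells with both cytokines and 24 in such Pac1-/- cells. Its level in WT was 72.9 CPM (66.7 to 79.6) with neither, 90.6 CPM with Il13 only, 98.5 CPM (87.5 to 110) with Il5 only and 98.4 CPM (77.9 to 123) with both. In Pac1-/- it was 53.3 CPM (48.2 to 58.9), 57.7 CPM, 81.5 CPM (67.5 to 97.4) and 63.7 CPM (40.8 to 94.8). Cells with Il5 only thus lay above cells with neither in both libraries, by relative log2 ratios of 0.54 (0.33 to 0.75) and 0.74 (0.43 to 1.04). For both cytokines over neither the ratio was 0.62 (0.26 to 0.96) in WT and 0.50 (−0.16 to 1.09) in Pac1-/-, the latter not separated from the median gene at this depth.

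Thinning discards most UMIs of a deep cell, so the levels were also summed over all UMIs of the same cells, with the classes unchanged. This was added after the thinned levels had been seen. Xbp1 then gave relative log2 ratios of both over neither of 0.43 (0.27 to 0.58) in WT and 0.70 (0.49 to 0.90) in Pac1-/-. Hspa5 gave 0.49 (0.45 to 0.53) and 0.62 (0.58 to 0.66), and Calr 0.61 (0.53 to 0.69) and 0.72 (0.63 to 0.80). All 3 members lay above the median gene with this count too, by smaller amounts for Hspa5 and Calr than with thinned UMIs. For Il13 only over neither, Xbp1 gave 0.16 (−0.02 to 0.33) in WT and 0.14 (−0.07 to 0.34) in Pac1-/-. Unthinned UMIs also varied between cells beyond counting error. Over all passing cells, their variance over mean ran from 1.11 for Sdf2l1 to 14.8 for Hspa5 in WT. In Pac1-/- it ran from 1.31 to 18.7 for the same genes. The intervals of sums over all UMIs leave out this spread between cells and are narrow for that reason.

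Atf4 was at 177 CPM in WT cells with neither cytokine and at 198, 201 and 172 CPM with Il13 only, Il5 only and both. The Pac1-/- levels were 188 CPM and 202, 236 and 236 CPM in the same order. Summed over all UMIs, the relative log2 ratio of both over neither was 0.39 (0.29 to 0.49) in WT and 0.42 (0.30 to 0.53) in Pac1-/-. Atf4 as counted was 186 CPM with neither and 211 CPM with both in WT, and 197 and 218 CPM in Pac1-/-, so that the distance came in part from the lower median gene. In the thinned cells the relative ratio was 0.14 (−0.12 to 0.40) in WT and 0.57 (0.25 to 0.88) in Pac1-/-. The WT value kept its sign in 11 of 15 alternatives and was −0.51 within barcodes gated by ILC2 markers. Ddit3, a target of ATF4, had 20 thinned UMIs in WT cells with both cytokines and 15 in such Pac1-/- cells. Its relative log2 ratios of −0.16 (−0.90 to 0.50) and 0.67 (−0.19 to 1.43) both included 0. Over all UMIs the Ddit3 ratio of both over neither was 0.18 (−0.08 to 0.44) in WT and 0.43 (0.13 to 0.71) in Pac1-/-. For Il13 only it was 0.45 (0.20 to 0.69) in WT and −0.47 (−0.81 to −0.15) in Pac1-/-.

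Hsp90b1, which folds a narrower set of clients that includes integrins and Toll-like receptors, was at 364 CPM (350 to 379) with neither cytokine and 373 CPM (332 to 417) with both in WT. In Pac1-/- it was at 374 CPM (360 to 388) and 388 CPM (327 to 456). Cells with Il5 only had 369 CPM in WT and 340 CPM in Pac1-/-, and cells with Il13 only had 324 and 373 CPM. The as-counted log2 ratio of both over neither was 0.03 (−0.14 to 0.21) in WT and 0.05 (−0.20 to 0.29) in Pac1-/-. Between neither and both, Hsp90b1 as counted thus stayed level where Hspa5 and Calr did not. The promoters shown above hold an ERSE for all 3, and its part was not tested. Relative to the median gene the Hsp90b1 ratio was 0.22 (0.04 to 0.39) in WT and 0.29 (0.04 to 0.54) in Pac1-/-. Over all UMIs it was 0.23 (0.16 to 0.30) and 0.32 (0.23 to 0.41). For Il13 only over neither, the as-counted log2 ratio over all UMIs was −0.10 (−0.18 to −0.02) in WT and −0.03 (−0.11 to 0.05) in Pac1-/-.

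Pdia4 was at 52.0 CPM with neither cytokine and 41.1 CPM (28.3 to 57.7) with both in WT, and at 43.5 and 34.5 CPM (18.4 to 59.0) in Pac1-/-. Its relative ratios of both over neither, −0.16 and −0.09, had intervals that included 0. Sdf2l1 was detected in 1.76% of WT cells with neither cytokine and in 1.68% of those with both, and in 2.78% and 0.797% of the Pac1-/- cells. With 9 and 2 UMIs in the cells with both cytokines, it was under the minimum of 200 UMIs per library, and no order of its classes was detectable. With thinned UMIs Herpud1 went from 64.5 to 76.0 CPM in WT and from 51.7 to 58.4 CPM in Pac1-/- between neither and both. Its thinned relative log2 ratio was 0.42 (0.01 to 0.81) in WT and 0.42 (−0.27 to 1.04) in Pac1-/-. The WT value was −0.37 with cells thinned to 1000 UMIs. Over all UMIs Herpud1 was at 69.8 CPM with neither and 66.7 CPM with both in WT, and at 54.3 and 69.9 CPM in Pac1-/-. The relative log2 ratio over all UMIs was 0.14 (−0.04 to 0.31) in WT and 0.64 (0.42 to 0.84) in Pac1-/-.

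Ddit4, induced by several stresses and by glucocorticoids, was lower in cells with Il5 only. Pac1-/- cells had 89.5 CPM (82.8 to 96.6) with neither cytokine and 53.0 CPM (41.9 to 66.1) with Il5 only, a relative log2 ratio of −0.63 (−0.99 to −0.29). In WT the levels were 78.1 and 65.5 CPM, with a relative ratio of −0.14 (−0.39 to 0.09). Summed over all UMIs the ratio was −0.33 (−0.45 to −0.21) in Pac1-/- and −0.11 (−0.21 to −0.01) in WT. In Pac1-/- cells with Il13 only, Ddit4 was at 101 CPM (76.2 to 131). In cells with both cytokines the values depended on the UMIs used and on the scaling. Over all UMIs Ddit4 was at 67.4 CPM with both and 80.6 CPM with neither in WT (as counted −0.26; −0.43 to −0.09), and at 64.2 and 88.1 CPM in Pac1-/- (−0.46; −0.67 to −0.25). Relative to the median gene these ratios were −0.05 (−0.23 to 0.12) and −0.19 (−0.40 to 0.02). With thinned UMIs the ratio was 0.20 as counted and 0.38 (0.01 to 0.74) relative to the median gene in WT, and −0.17 and 0.08 (−0.50 to 0.60) in Pac1-/-. The Ddit4 UMIs were unevenly spread, with 21.8% of the WT and 21.4% of the Pac1-/- UMIs in the top 1% of cells before thinning.

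Counted over the 9 members with enough UMIs for this comparison, all but Sdf2l1, a relative log2 ratio of 0.5 or higher over cells with neither cytokine was met in WT by 3 members for both cytokines (Xbp1, Hspa5 and Calr), beside 14.8% of all 5396 genes compared. It was met by 1 member for Il5 only (Xbp1; 7.28% of genes) and by 0 for Il13 only (4.52%). In Pac1-/- it was met by 4 members for both cytokines (Hspa5, Atf4, Ddit3 and Calr; 19.3% of 5298 genes), by 3 for Il5 only (Xbp1, Hspa5 and Calr; 9.02%) and by 1 for Il13 only (Calr; 8.04%). The lower side, −0.5 or less, was met in WT by 0 members for both cytokines (15% of genes), 0 for Il5 only (3.78%) and 0 for Il13 only (7.77%). In Pac1-/- it was met by 0 members for both (21.3%), 1 for Il5 only (Ddit4; 6%) and 0 for Il13 only (10.8%). Sdf2l1, outside these counts, had −0.58 on 6 UMIs in WT cells with Il13 only and −1.58 on 2 UMIs in Pac1-/- cells with both. The median relative ratio of both over neither over all 10 members was 0.30 in WT and 0.46 in Pac1-/-. As counted, without the shift to the median gene, the numbers at 0.5 or higher for both cytokines were 1 in WT, beside 8.9% of genes, and 2 in Pac1-/-, beside 10.9%. With all UMIs of the cells, 0.5 or higher relative to the median gene was met by 1 in WT, beside 8.99% of genes, and by 4 in Pac1-/-, beside 13.0%, and as counted by 0 in either library, with Calr highest at 0.41 and 0.45.

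**Figure D3:**
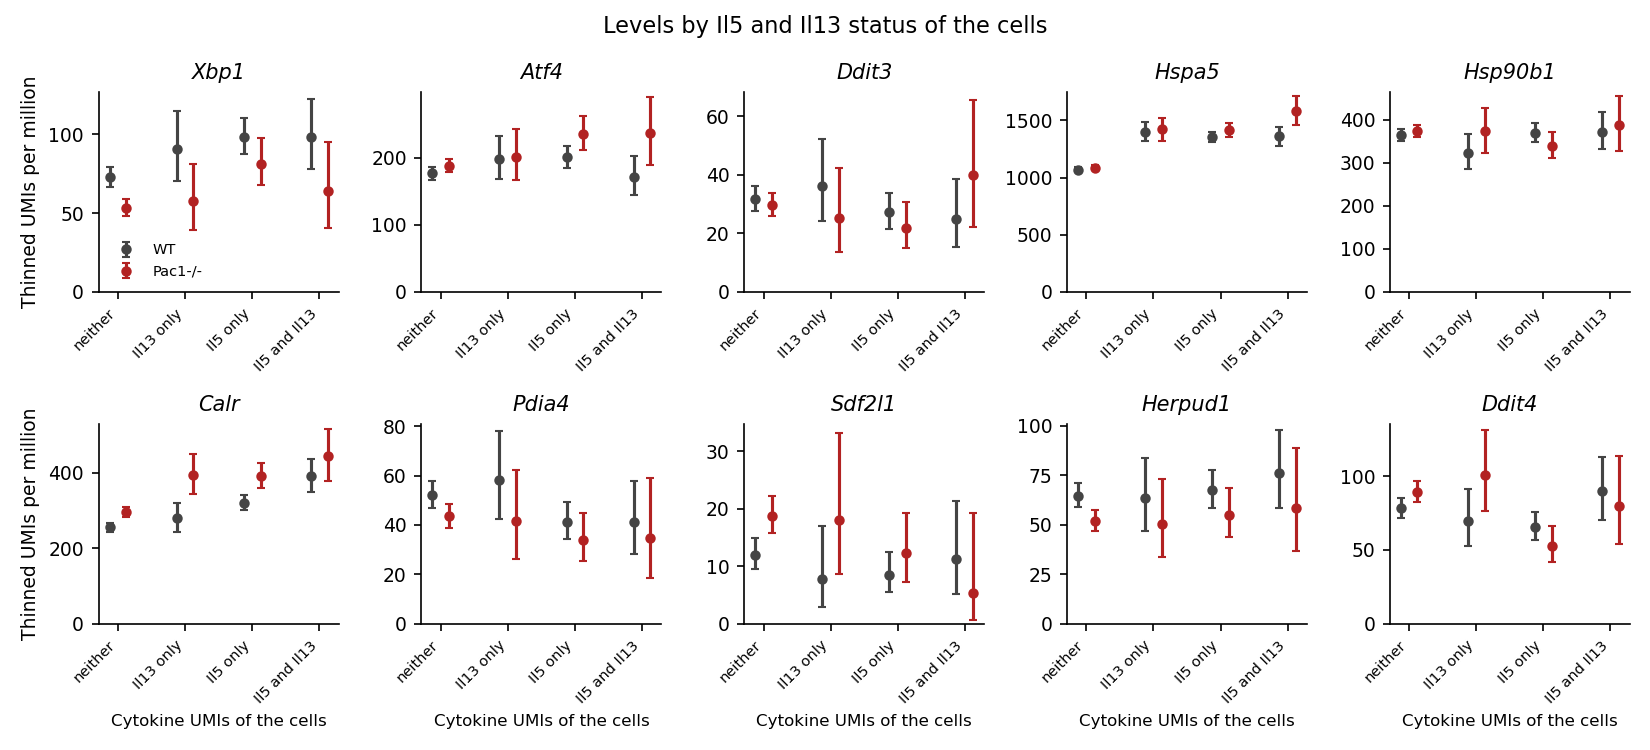
Each panel gives a gene's thinned CPM (linear axis from 0) in cells with neither cytokine, Il13 only, Il5 only or both, in WT (grey) and Pac1-/- (red), with exact 95% Poisson intervals. Hspa5 and Calr stand higher in the cytokine-bearing classes, except that the WT Calr intervals for Il13 only and neither overlap. Hsp90b1 is level between neither and both, with WT cells of Il13 only at 324 (285 to 366) against 364 with neither. The intervals of Ddit3, Pdia4 and Sdf2l1 are wide.

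Hspa5 and Calr also followed the number of cytokine UMIs. Among the 1500 UMIs of a cell, Il5 and Il13 UMIs were summed and cells taken in classes of 0, 1, 2 to 3, 4 to 7, 8 to 15 and 16 or more. The classes held 4600, 1354, 877, 543, 204 and 56 WT cells, and 4961, 809, 436, 215, 113 and 30 Pac1-/- cells. Hspa5 in WT went through 1070, 1290, 1355, 1504, 1513 and 1381 CPM. In Pac1-/- it went through 1087, 1286, 1482, 1705, 1906 and 1400 CPM. By these levels Hspa5 was higher in each class up to 8 to 15 cytokine UMIs and not beyond. Intervals of neighbouring classes overlapped in part, as in WT at 4 to 7 (1421 to 1591 CPM) and 8 to 15 (1378 to 1657 CPM). The highest class had intervals of 1141 to 1656 CPM in WT and 1076 to 1791 CPM in Pac1-/-, which overlapped those at 8 to 15.

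By level, Calr was higher in each class than in the one before. Its intervals at neighbouring classes overlapped, except from 0 to 1 cytokine UMI in Pac1-/-. In WT Calr was at 255, 273, 326, 384, 454 and 595 CPM (442 to 785 for the last). In Pac1-/- it was at 296, 353, 420, 453, 513 and 600 CPM (395 to 873 for the last). Its log2 ratio of the highest class over cells with 0 cytokine UMIs was 1.22 (0.79 to 1.63) in WT and 1.02 (0.42 to 1.57) in Pac1-/-, as counted. The median depth before thinning was 4078.5 UMIs in WT and 5578 in Pac1-/- at 0 cytokine UMIs, 6762 and 9080 at 2 to 3, and 4301 and 6079 in the highest class.

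Over all UMIs of the same cells, Xbp1 in WT was at 77.3, 80.9, 85.8, 114, 132 and 82.8 CPM along these classes, the last with an interval of 52.5 to 124. The Pac1-/- values were 54.5, 59.0, 66.8, 73.0, 92.3 and 99.8 CPM. Xbp1 was lower in Pac1-/- than in WT in all classes but the highest, where the intervals overlapped widely. Hsp90b1 kept between 375 and 400 CPM in WT up to 15 cytokine UMIs and between 344 and 385 CPM in Pac1-/-. At 16 or more it was at 443 CPM (368 to 529) in WT and 479 CPM (388 to 585) in Pac1-/-, against 379 CPM (372 to 386) and 380 CPM (374 to 386) at 0. Pdia4 was at 46.1 CPM at 0 cytokine UMIs and 27.3 CPM at 8 to 15 in Pac1-/-, and at 53.0 and 35.5 CPM in WT. With thinned UMIs it was at 43.5 and 47.2 CPM (20.4 to 93.0) in Pac1-/- and at 52.0 and 49.0 CPM (27.4 to 80.9) in WT. Ddit4 in WT was at 80.6 CPM at 0 and 43.2 CPM at 16 or more.

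**Figure D4:**
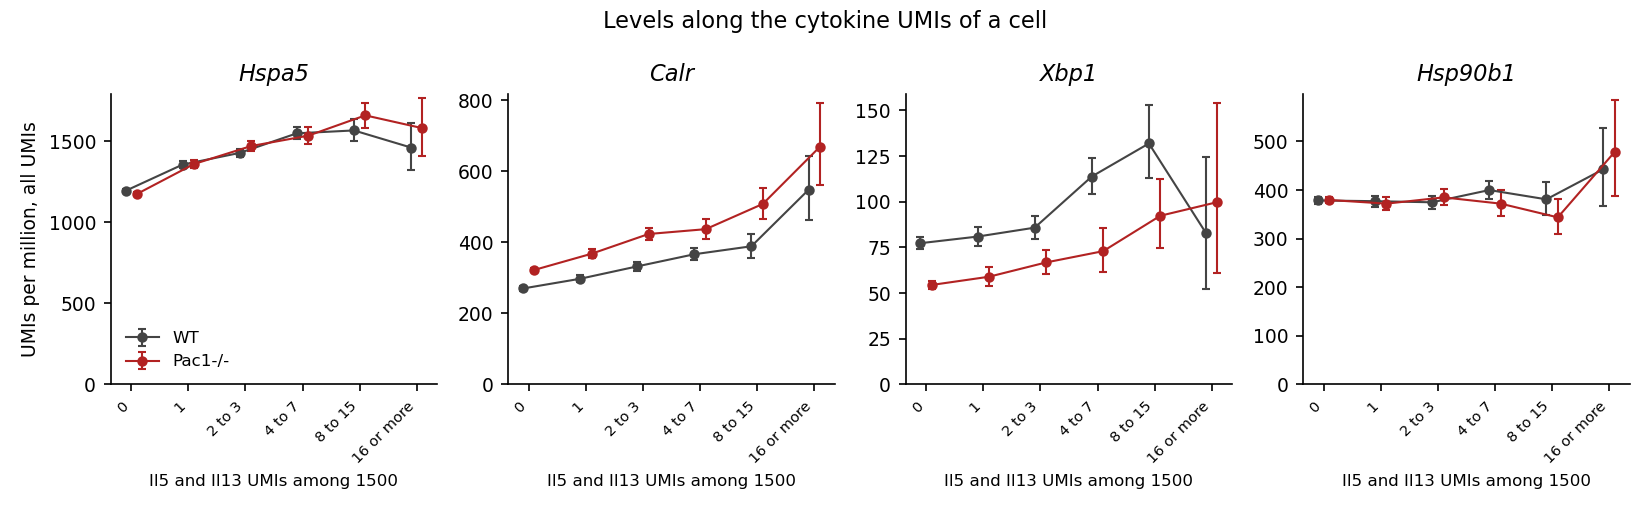
Lines join CPM of 4 genes over all UMIs of the cells (linear axes from 0), in classes of cells by the summed Il5 and Il13 UMIs among 1500, for WT (grey) and Pac1-/- (red) with exact 95% Poisson intervals. Calr climbs through the classes in both libraries, from 270 to 547 in WT and from 322 to 669 in Pac1-/-, while Hsp90b1 is level up to 8 to 15 UMIs.

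Several properties moved with cytokine status. The 10 ILC2 markers summed to 5787 CPM in WT cells with neither cytokine and 8252 CPM in cells with both, and to 5249 and 8008 CPM in Pac1-/-. Plasma cell markers went the other way. In WT they had UMIs for 6 of 10 and summed to 86.7 CPM with neither, against 3 of 10 and 37.4 CPM with both. Jchain and Mzb1 had UMIs with neither and were at 0 with both, while Tnfrsf17 was at 0 in either class. In Pac1-/- the plasma cell markers summed to 129 and 23.9 CPM. Endothelial markers were higher with both cytokines, at 33.8 CPM with neither and 82.2 CPM with both in WT, where 6 of 6 had UMIs in either class. In Pac1-/- they were at 35.3 CPM from 6 of 6 markers and 87.6 CPM from 1 of 6. Erythroid markers were at 1555 CPM in Pac1-/- cells with Il13 only, against 243 CPM with neither. The sums for T cell, B cell, myeloid, epithelial and stromal markers were lower with both cytokines than with neither in each library. The part of other cell types in the members' ratios was not tested beyond the marker gate described next. Within barcodes that had at least 2 ILC2 markers and at most 1 marker of each other type (3744 WT and 2391 Pac1-/- barcodes before thinning), 207 thinned WT and 71 thinned Pac1-/- cells had both cytokines and 1961 and 1480 had neither. There the relative ratio of both over neither was 0.48 and 0.92 for Hspa5 and 0.96 and 0.77 for Calr. Without predicted doublets it was 0.52 and 0.88 for Hspa5 and 0.82 and 1.0 for Calr.

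The ratios were smaller in the deepest of 3 equal groups of cells by UMIs. There Hspa5 gave 0.19 in WT and 0.23 in Pac1-/-, Calr 0.54 and 0.51, and Xbp1 0.18 and 0.09. In the shallowest group Hspa5 gave 0.64 and 0.69 and Xbp1 1.07 and 0.61. All of these kept their sign, and the part of cell depth in their size was not tested. Across the alternatives tried, the ratio of both over neither kept its sign in 15 of 15 for Hspa5, Calr and Xbp1 in each library.

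Between single cells, the members were almost unrelated. Pearson's r of log2(1 + thinned UMIs) over the 45 pairs of members ran from −0.01 to 0.07 in the 7634 WT cells and from −0.01 to 0.09 in the 6564 Pac1-/- cells, which share a library and a depth, and such weak values in sparse counts are no finding. Hspa5 had r of 0.13 with Il5 in both libraries. Its r with summed immediate-early genes was 0.25 in WT and 0.27 in Pac1-/-, and with summed cytosolic heat shock genes 0.20 and 0.23.

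Other genes of the same pathways were described by lists, in which a gene counted as compared with at least 50 UMIs over both libraries for genotype and at least 200 thinned UMIs in a library for status. Genes named as highest or lowest are so among those compared in both ways. Of all genes, 16.1% were lower and 11.5% higher in Pac1-/- by 0.5 or more, and with both cytokines 14.8% were higher and 15% lower in WT, and 19.3% and 21.3% in Pac1-/-. Among UPR sensors and regulators, 2 of 10 were lower in Pac1-/- and 0 higher, near the share of all genes. By status 2 of 5 were higher and 0 lower with both cytokines in WT, and 1 of 5 was higher and 1 lower in Pac1-/-. Ern1, which encodes IRE1α, was at 226 CPM in WT and 133 CPM in Pac1-/- (−0.95; −0.99 to −0.91), and Creb3l2, a membrane-bound transcription factor, was at 42.1 and 24.6 CPM (−0.96). Ern1 and Xbp1, the mRNA that its product splices, thus were both lower in Pac1-/-. By status, Ern1 was at 174 CPM with neither cytokine and 292 CPM with both in WT (0.93; 0.72 to 1.13), and at 105 and 199 CPM in Pac1-/- (1.16; 0.80 to 1.51). Creb3l2 had a status ratio of 0.79 in WT and 0.14 (−1.01 to 1.10) in Pac1-/-. Among genes compared in both ways, Mbtps1, a protease that cleaves ATF6, was highest in Pac1-/- at 0.08, followed by Tmbim6 at −0.18. Mbtps1 was also the gene lower with both cytokines in Pac1-/- (−0.51; −1.58 to 0.39), against 0.07 in WT.

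Among other ER folding genes, 2 of 18 were lower in Pac1-/- and 1 higher, and 4 of the 14 compared by status were higher with both cytokines in each library, while 0 in WT and 2 in Pac1-/- were lower, beside the 14.8% and 19.3% of all genes higher and the 15% and 21.3% lower. The lower ones were Cnpy2 (−0.58; −1.65 to 0.32) and Fkbp2 (−0.84; −1.85 to 0.01), which was named after its value was seen. Dnajb9, a BiP cochaperone, was at 90.8 CPM in WT and 60.9 CPM in Pac1-/- (−0.76; −0.83 to −0.70). Its status ratios were 0.53 (0.19 to 0.86) and 0.75 (0.13 to 1.32). Ero1l, the oxidase that supplies disulfide bonds, had the highest status ratios of the list, 1.17 (0.95 to 1.38) in WT and 1.45 (1.17 to 1.72) in Pac1-/-, with 138 against 273 CPM and 146 against 337 CPM. Hyou1 had 0.20 and 1.34, Sdf4 a genotype ratio of −0.43, and Ppib and Cnpy2 genotype ratios of 0.45 and 0.66. The list thus held genes that were higher and genes that were lower in Pac1-/-, as the 10 members did.

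In ER-associated degradation, 1 of the 15 genes compared was lower in Pac1-/- (Selenos, −0.57) and 1 higher (Derl2, 0.52). Selenok, a selenoprotein of the ER membrane, was higher with both cytokines, by 0.54 (0.33 to 0.75) in WT and 0.81 (0.58 to 1.03) in Pac1-/-, while Edem1 gave 0.21 (−0.51 to 0.87) and 0.61 (−0.42 to 1.48). By status 1 of the 12 compared was higher and 1 lower in WT, and 3 higher and 0 lower in Pac1-/-. The lower one was Derl2 (−0.92; −2.16 to 0.09), which gave −0.04 in Pac1-/-. Integrated stress response targets were lower in Pac1-/- for 6 of 17 and higher for 1, beside 16.1% and 11.5% of all genes. By status 3 of 9 were higher and 0 lower with both cytokines in WT, and 2 of 7 higher and 2 lower in Pac1-/-. The transfer RNA synthetases Sars and Nars gave −0.95 (−1.01 to −0.89) and −0.80 (−0.86 to −0.74). Atf3 was at 880 CPM in WT and 636 CPM in Pac1-/- (−0.66), and by status it stood at 0.79 (0.68 to 0.89) and 1.20 (1.03 to 1.36). Cebpb, at 256 and 371 CPM between the libraries (0.35), had status ratios of 0.50 and 0.76, whereas Ppp1r15a, the stress-induced subunit of the eIF2α phosphatase, was near 0 in each (0.04 by genotype, 0.01 and 0.09 by status).

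Of the 7 genes for eIF2 kinases and phosphatase, 0 passed 0.5 between the libraries, where Eif2ak1 gave 0.10, Eif2s1 −0.07 and Ppp1r15b −0.12. Their status ratios rested on few UMIs, with Ppp1r15b at 0.45 and 0.20 and Eif2s1 at 0.28 and −0.14. Eif2ak1, the kinase that answers heme deficiency, was the gene past −0.5 among those of the list compared by status in each library, at −1.12 (−2.46 to −0.05) in WT and −1.47 (−3.76 to 0.09) in Pac1-/-. Translocon and glycosylation genes were lower in Pac1-/- for 5 of 28 and higher for 5. Sec61g, a subunit of the protein channel of the ER, was at 447 CPM in WT and 231 CPM in Pac1-/- (−1.14), and Sec62 gave −0.85, while Spcs2 and Ostc each gave 0.67. By status, Dad1, a subunit of the oligosaccharyltransferase, went from 456 to 796 CPM in WT (0.99; 0.86 to 1.11) and from 411 to 831 CPM in Pac1-/- (1.26; 1.09 to 1.43), and Rpn1 gave 0.51 and 0.54 with intervals that included 0. In all, 3 of 27 were higher and 1 lower with both cytokines in WT, and 4 of 28 higher and 1 lower in Pac1-/-. Sec11a, a signal peptidase subunit named after its value was seen, was the lower one in each, at −0.67 (−1.27 to −0.11) and −0.60 (−1.31 to 0.02).

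ER to Golgi transport genes were lower in Pac1-/- for 0 of 21 and higher for 3, with Sar1b at 0.66, Kdelr2 at 0.53 and Tmed10 at −0.15. Arf4, a small GTPase of the secretory pathway, was at 616 and 633 CPM between the libraries and had status ratios of 0.62 in each, and Sar1a gave 0.72 and 0.45. With both cytokines 3 of 18 were higher in each library, and 1 in WT (Kdelr1, −0.75) and 2 in Pac1-/- (Sec13, −0.83, and Lman1, −0.88) were lower, with intervals that included 0. These 3 genes were named after their values were seen. Cytosolic heat shock genes, which answer misfolding outside the ER, were higher in Pac1-/- for 1 of 11 and lower for 1. Bag3, named after its value was seen, was the lower one, at 9.40 CPM in WT and 5.25 CPM in Pac1-/- (−1.03; −1.24 to −0.82). Hspa1a was at 503 CPM in WT and 1000.3 CPM in Pac1-/- (0.80) and Dnajb1 gave 0.49, with Hspd1 and Dnaja1 at −0.05 and −0.25. By status 4 of 10 were lower with both cytokines in each library and 0 higher, with Hspa1a at −0.71 and −1.28, and Hsp90ab1 and Dnaja1 as the highest at 0.31 and 0.24 in WT and 0.44 and 0.31 in Pac1-/-.

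Immediate-early genes, which are known to be induced while tissue is dissociated, were lower in Pac1-/- for 3 of 11, with Nr4a1 at −0.92 and Egr1 at −0.53, and Jun and Fosb at 0.22 and 0.19. By status 1 of the 9 compared was higher and 2 lower with both cytokines in WT, and 1 of 9 higher and 3 lower in Pac1-/-. With both cytokines Nr4a1 gave 0.88 and 1.33, and Junb 0.35 and 0.31. Lower ones were Jun (−0.55 and −0.65), Egr1 (−0.67 and −0.84) and, in Pac1-/-, Zfp36 (−0.68, against −0.42 in WT). Zfp36 was named after its value was seen. The part of dissociation in the members' levels was not tested. ILC2 effector genes were lower in Pac1-/- for 3 of the 7 compared, including Il5 (−1.01), Il13 (−0.54) and Calca (−0.68), with Csf2 at 0.20 and Areg at −0.17. Il5 and Il13 define the classes, so their own status values are no result. With them included, 6 of 6 effector genes compared were higher with both cytokines in WT and 5 of 5 in Pac1-/-. Calca gave 1.85 in WT and 2.78 in Pac1-/-, Areg 1.58 and 1.76, and Csf2 1.27 and 1.55. These 3 ratios were larger than those of Hspa5 (0.53 and 0.79) and Calr (0.80 and 0.83). How far the members' ratios go with those of effector genes was not tested.

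**Figure D5:**
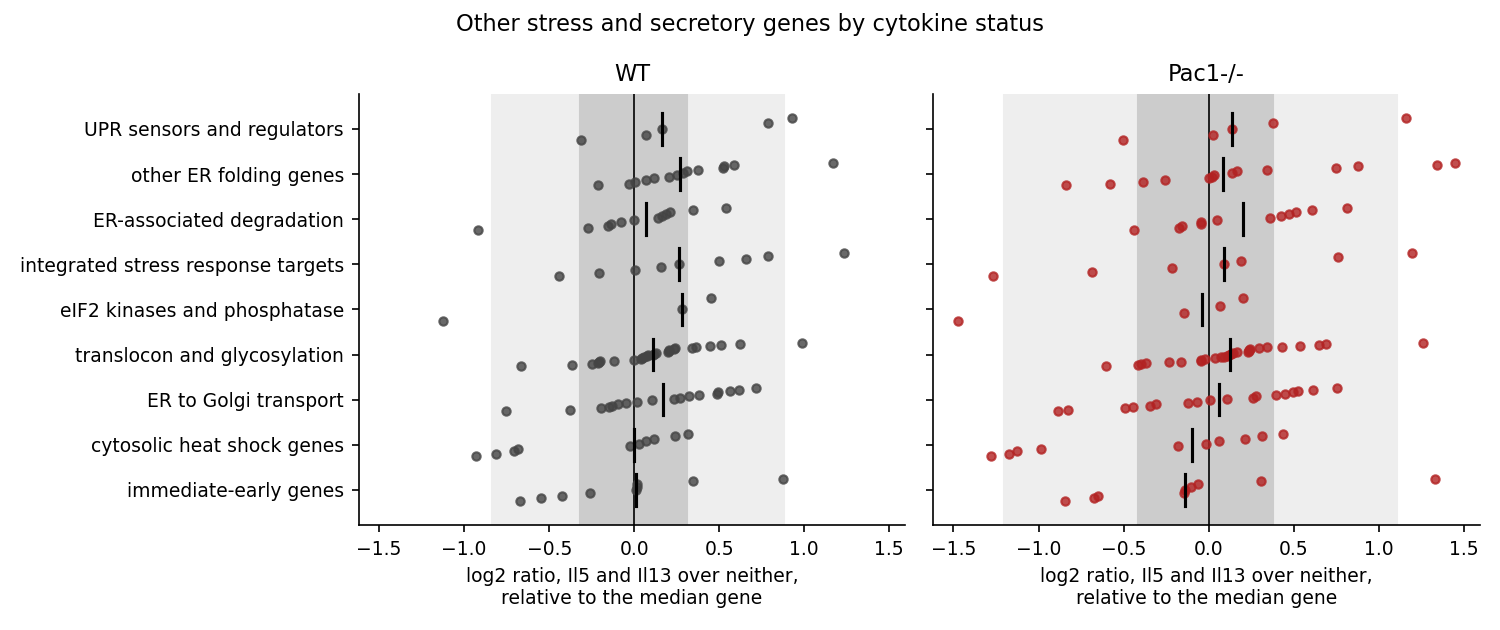
Each point is a gene of a list, placed at its log2 ratio of cells with Il5 and Il13 over cells with neither, relative to the median gene, in WT (left) and Pac1-/- (right), with the list's median as a black line and grey bands for the middle 50% and 90% of all genes. The ILC2 effector genes, a list that holds Il5 and Il13, are not plotted. The medians of the 9 lists shown fall inside the darker band, while Ern1 (0.93 and 1.16) lies above the wider band in both libraries.

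The genes whose levels over the 8 classes were most like the mean of the 5 folding members, each centred on its library, were Canx (r = 0.95), Ptgir (0.94), Lat (0.93), Rara (0.93) and Cox6a1 (0.93), among 2415 genes with at least 50 CPM in both libraries. This mean followed the sparse Sdf2l1 (r = 0.80) and not Hspa5 (−0.19) or Calr (0.05), so the likeness rests on a gene with 2 to 140 thinned UMIs per class in Pac1-/-. Canx, the membrane-bound relative of calreticulin, was at 188 CPM with neither cytokine and 214 CPM with both in WT, and at 192 and 165 CPM in Pac1-/-.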

How the data were processed

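UMI counts per gene and barcode were deposited by the authors as 1 matrix per library. Cell Ranger is given as 6.1.1 in the submitters' processing notes and as 4.0.0 in the file header, with alignment to mm10; the annotation release is not given in the sources used here. Barcodes were kept with 500 or more genes detected and no more than 10% of UMIs from mitochondrial genes. Counts were summed over cells (CPM) for genotype, with genes of at least 50 UMIs in both libraries together, and after thinning each cell to 1500 UMIs for cytokine status, with genes of at least 200 UMIs. Ratios were given relative to the median gene, and as counted among the alternatives. Intervals were exact Poisson or binomial at 95%; with 1 library per genotype no test was made. A log2 ratio of 0.5 set the counts of members. Doublets were predicted from simulated pairs at 0.8% per 1000 barcodes. The computation was tested on simulated data.

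All 10 members were named. From each other list, the 2 highest and 2 lowest genes by genotype and the 2 highest by status (mean of both libraries) were named among genes passing the filter in both libraries, with the 5 genes most like the folding members over 8 classes. The members and lists were chosen with earlier results of these data known. Alternatives covered scaling, UMI and barcode filters, doublets, thinning, the cytokine threshold, an ILC2 marker gate and depth; a minimum of 2000 UMIs, leaving out the top 1% of cells and summing all UMIs were chosen after seeing the data. Promoters came from RefSeq (GRCm38.p6) and gene positions from GENCODE vM21. Python 3.11.15 was used with pandas 2.3.3, matplotlib 3.10.9, scikit-learn 1.9.0, scipy 1.17.1 and numpy 2.4.6.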

Additional observations from a re-analysis of the deposited data

How the results depend on the processing

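In what follows, cells were also split into 3 equal groups by UMIs (shallowest, middle and deepest). No paired analysis was possible because each genotype was 1 library. The directions of Hspa5, Calr and Xbp1 for both cytokines over neither held in all 15 alternatives in both libraries, and those of Xbp1 and Sdf2l1 between genotypes in all 10. The counts of members past 0.5 were less stable, and the cause was not tested. The number lower in Pac1-/- (1) was 2 with cells thinned to 1500 UMIs and 2 in the ILC2 marker gate, and the number higher (1) was 0 in cells with neither cytokine. For both cytokines over neither, the WT number (3) was 1 in the deepest group, with at least 2000 thinned UMIs per gene, with all UMIs and with scaling to total UMIs. It was also 2 at 1000 UMIs and without thinning, and 4 without cells over 2 times the median UMIs. The Pac1-/- number (4) was 2 without thinning, in the middle and deepest groups, with at least 2000 UMIs and with scaling to total UMIs, and 6 in another thinning, without cells over 2 times the median UMIs, in the shallowest group and with at least 50 UMIs per gene. For Il5 only, the WT number (1) was 0 at 2500 UMIs, without thinning, in the deepest group, with at least 2000 UMIs, with all UMIs and with total scaling, 2 at 1000 UMIs, without cells over 2 times the median UMIs and with at least 50 UMIs per gene, and 3 with at least 2 cytokine UMIs. The Pac1-/- number (3) was 0 without thinning, in the deepest group and with all UMIs, 1 at 1000 UMIs, with at least 2000 UMIs and with total scaling, and 5 with at least 2 cytokine UMIs. For Il13 only, the WT number (0) was 1 at 2500 UMIs, without thinning, in another thinning, without cells over 2 times the median and in the gate, and 2 with at least 2 cytokine UMIs and in the shallowest group. The Pac1-/- number (1) was 0 without thinning, in the deepest group, with at least 2000 UMIs, with all UMIs and with total scaling, 2 in another thinning, without doublets, without cells over 2 times the median, in the gate, in the shallowest group and with at least 50 UMIs, and 4 with at least 2 cytokine UMIs. Ratios of at least 0.5 in size changed sign for Sdf2l1 and Ddit3. Sdf2l1 in WT with Il13 only (−0.58) was 0.58 at 2500 UMIs, 0.15 without thinning, 0.36 in another thinning and 0.15 with all UMIs. Sdf2l1 in Pac1-/- with both (−1.58) was 0.21, 0.061 and 0.26 under the first 3 of these. Ddit3 in Pac1-/- with both (0.67) was −0.046 in the gate and −0.14 in the middle group. Smaller ratios changed sign too, of which these are examples. For both cytokines in WT, Atf4 (0.14) kept its sign in 11 of 15 alternatives and was −0.51 in the gate, and Ddit4 (0.38) kept it in 8 and was −0.70 in the shallowest group, and in Pac1-/- with Il5 only, Hsp90b1 (−0.01) kept it in 6. Depth limits Sdf2l1, Ddit3, Pdia4, Herpud1 and Xbp1 in the smaller classes.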
